A study of Mus musculus with 12 samples.

Results

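The MS4A family (membrane-spanning 4-domains, subfamily A) was examined in RNA-seq libraries of mouse dendritic cells (DCs). It was taken as 8 genes of the deposited count table, *Ms4a4a*, *Ms4a4b*, *Ms4a4c*, *Ms4a6b*, *Ms4a6c*, *Ms4a6d*, *Ms4a7* and *Ms4a8a*, found by their symbols among 55471 genes. The table held 21 genes with an *Ms4a* symbol in all. The family was chosen by its measured induction, since *Ms4a4c* ranked among the genes most induced by interferon-β (IFN-β) in these libraries. The effect of IFN-β on the 8 members is therefore given as a description, without a test. Tests were kept for the effect of the *Ppargc1b* knockdown and for its interaction with IFN-β. The interaction is built from the same IFN-β effects, so it is not independent of how the family was chosen.

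The 12 libraries fell into 4 groups of 3. DCs were grown from C57BL/6 bone marrow in GM-CSF, a myeloid growth factor, and every group carried a retrovirus with a human CD8 reporter on which the cells were sorted. The hairpin (shRNA) it expressed targeted either *Ppargc1b* (sh*Ppargc1b*) or, as shControl, the luciferase of the firefly. Each shRNA was measured without stimulation and after 6 h of IFN-β. The labels did not say which hairpin against *Ppargc1b* was used. Per the paper, its first hairpin served in most experiments unless another was named. The labels also did not say whether replicates came from separate cultures or animals. So p-values measure the spread between these samples, which may be technical. *Ppargc1b* encodes PGC-1β, a transcriptional co-activator of mitochondrial genes.

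MS4A proteins cross the plasma membrane several times and are related to CD20, the B cell antigen encoded by *Ms4a1*. Several members sit beside immune receptors and alter their signalling: *Ms4a2* encodes the β chain of the high-affinity IgE receptor, *Ms4a4b* was described in T cells, and *Ms4a4a*, *Ms4a6d* and *Ms4a7* are known from macrophages and other myeloid cells. *Ms4a8a* is known as a gene of alternatively activated macrophages. In mouse the genes lie together on chromosome 19, where copies of the *Ms4a4* and *Ms4a6* genes have multiplied.

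Library totals ranged from 49.9 M to 77.7 M counts (M, mega). *Ppargc1b* itself had 33.4, 33.3 and 36.7 CPM (counts scaled to library size, the usual CPM unit) in unstimulated shControl libraries and 18.6, 19.3 and 20.3 CPM in unstimulated sh*Ppargc1b* libraries. After IFN-β the values were 31.4, 23.6 and 28.4 CPM in shControl and 19.6, 15.5 and 20.9 CPM in sh*Ppargc1b* libraries. Its fitted level was 43.7% lower in unstimulated cells (log2 fold change -0.83 ± 0.10 SE, adjusted p = 3.2e-05) and 32.8% lower with IFN-β (-0.57 ± 0.11, adjusted p = 9.5e-04), so the knockdown was partial. Summed CPM of 10 dendritic-like markers lay between 4482 and 6531 in the 12 libraries, and of 12 macrophage-like markers between 2464 and 3615. *Cd209a*, a dendritic-like marker, and *Cd163*, a macrophage-like marker, stayed under 1 CPM in every library. B cell-like markers summed to 2.77 to 6.24 CPM and T or NK cell-like markers to 0.868 to 2.59 CPM.

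The 8 members lay within 537.4 kb of chr19:11067471-11604849 (GRCm38), with *Ms4a8a* at one end and *Ms4a6d* at the other. This span held 27 annotated genes, of which 17 were protein-coding. *Ms4a4c* (chr19:11404770-11427246, plus strand) and *Ms4a4b* (chr19:11443553-11467055, plus strand) were the closest copies, with 91.7% of coding bases identical. As a share of the longer coding sequence, *Ms4a6b* shared 80.4% of bases with *Ms4a6d* and 75.7% with *Ms4a6c*. Over aligned bases alone the order was reversed, at 81.8% and 86.4%. The most distant pair was *Ms4a4b* and *Ms4a8a* by the longer sequence (46.3%). Over aligned bases it was *Ms4a4c* and *Ms4a6c* (60.8%). Stretches shared with other genes were short: of all 100-base windows of the transcripts, 1.66% of *Ms4a4c* and 0.47% of *Ms4a4b* occurred in another gene, and none did for *Ms4a4a*, *Ms4a6b*, *Ms4a6d*, *Ms4a7* or *Ms4a8a*. In *Ms4a6c* 45.77% of windows were shared, since 1088 bases of its exons lay opposite the antisense transcript *BE692007*, and whether counting used the strand is not given in the sources used here. *BE692007* had 22 to 176 counts a library, 0.609% to 1.61% of the *Ms4a6c* count.

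The sequence before the start site is shown for 6 members, so that close copies can be compared there. RefSeq promoters (GRCm38.p6) were found for 7 of the 8 members and none for *Ms4a6d*. Each run is the 250 bases before the RefSeq start, 5′ to 3′ on the strand of the gene. For *Ms4a4c* and *Ms4a6b* this start lies inside the GENCODE gene, whose annotation begins further upstream. *Ms4a7* has another RefSeq start, which is not shown. Capitals mark matches on either strand to the core of the interferon-stimulated response element (ISRE, GAAANNGAA) or to the core of a PU.1-type ETS site (GAGGAA). PU.1 is a transcription factor of myeloid cells, and the ISRE is bound by the factors that IFN-β activates. The windows were chr19:11469118-11469367 for *Ms4a6c*, chr19:11518309-11518558 for *Ms4a6b*, chr19:11407411-11407660 for *Ms4a4c* and chr19:11443308-11443557 for *Ms4a4b*, all on the plus strand, and chr19:11336147-11336396 for *Ms4a7* and chr19:11081104-11081353 for *Ms4a8a*, both on the minus strand.
Ms4a6c: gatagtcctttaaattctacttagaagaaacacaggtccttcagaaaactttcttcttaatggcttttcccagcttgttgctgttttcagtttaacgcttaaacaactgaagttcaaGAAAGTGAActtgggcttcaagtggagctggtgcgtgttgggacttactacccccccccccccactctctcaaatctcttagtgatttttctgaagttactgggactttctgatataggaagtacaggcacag
Ms4a6b: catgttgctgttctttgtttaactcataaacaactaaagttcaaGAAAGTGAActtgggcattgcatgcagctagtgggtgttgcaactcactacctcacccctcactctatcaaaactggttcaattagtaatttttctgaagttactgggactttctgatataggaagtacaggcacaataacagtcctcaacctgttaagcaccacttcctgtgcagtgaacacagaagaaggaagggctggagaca
Ms4a7: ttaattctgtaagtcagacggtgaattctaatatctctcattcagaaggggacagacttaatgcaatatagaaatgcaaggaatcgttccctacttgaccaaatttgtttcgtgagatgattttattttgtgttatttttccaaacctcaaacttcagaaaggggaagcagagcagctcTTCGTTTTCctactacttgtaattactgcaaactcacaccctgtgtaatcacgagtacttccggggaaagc
Ms4a4c: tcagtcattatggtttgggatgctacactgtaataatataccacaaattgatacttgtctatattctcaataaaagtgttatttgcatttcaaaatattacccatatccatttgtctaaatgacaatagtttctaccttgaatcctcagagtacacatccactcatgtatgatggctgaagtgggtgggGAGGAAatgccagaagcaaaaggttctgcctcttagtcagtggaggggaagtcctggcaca
Ms4a4b: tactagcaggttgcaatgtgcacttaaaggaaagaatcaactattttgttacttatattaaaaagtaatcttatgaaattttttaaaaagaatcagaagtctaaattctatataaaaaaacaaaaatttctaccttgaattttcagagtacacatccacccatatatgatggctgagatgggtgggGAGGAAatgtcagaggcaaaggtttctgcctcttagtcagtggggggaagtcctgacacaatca
Ms4a8a: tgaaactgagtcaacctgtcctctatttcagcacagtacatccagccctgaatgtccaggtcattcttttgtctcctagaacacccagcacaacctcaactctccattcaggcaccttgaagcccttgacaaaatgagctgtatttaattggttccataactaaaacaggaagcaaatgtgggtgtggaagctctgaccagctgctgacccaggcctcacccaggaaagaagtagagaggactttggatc

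The ISRE core occurred before the start in 3 of the 7 members: at position -133 in *Ms4a6c*, -206 in *Ms4a6b* and -71 in *Ms4a7*, counted from the start site. The other RefSeq start of *Ms4a7* also had a match, at -148. The same 9 letters, GAAAGTGAA, were matched in *Ms4a6c* and *Ms4a6b*, whose upstream sequences shared 59.6% of bases. The core was found before the start in 7.1% of 32851 mouse promoter windows. The PU.1 core lay at -61 in *Ms4a4c* and -64 in *Ms4a4b*, whose upstream sequences shared 74.0% of bases, and it was found before the start in 23.3% of all windows. No match to the interferon-γ-activated site (TTCNNNGAA, either strand) lay before the start of a member, against 7.0% of all windows. The upstream window of *Ms4a8a* held none of the 3 motifs, and in the members matches to different motifs did not overlap. These are matches of letters only.

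Transcript levels were first compared between members within a group, as CPM per kilobase (kb) of exon. *Ms4a6d* was highest in each of the 4 groups. In unstimulated shControl cells it stood at 57.5 ± 5.40 CPM per kb (SD, n = 3), followed by *Ms4a6c* at 19.4 ± 1.89 and *Ms4a4a* at 7.43 ± 0.424. *Ms4a8a* (3.35 ± 0.176), *Ms4a4c* (2.95 ± 0.798) and *Ms4a7* (2.42 ± 0.162) came next, and here *Ms4a4c* overlapped both its neighbours in the order. *Ms4a6b* (1.01 ± 0.146) and *Ms4a4b* (0.0665 ± 0.0164) were lowest. No other neighbours in the order overlapped, in this group or in the other 3 groups. The order was the same when the longest transcript was used as the length. The length of *Ms4a4a* is uncertain, as its annotation held a single transcript of 836 bases.

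After IFN-β, *Ms4a4c* moved from the fifth place to the second in both shRNA groups. In shControl cells with IFN-β, *Ms4a6d* stood at 329 ± 21.0, *Ms4a4c* at 288 ± 7.61 and *Ms4a6c* at 200.5 ± 8.12 CPM per kb. The corresponding levels in sh*Ppargc1b* cells were 303 ± 13.8, 218 ± 20 and 152 ± 10.7 CPM per kb. Summed over the 8 members, the level was 94.1 ± 8.49 CPM per kb in unstimulated shControl, 109.7 ± 8.55 in unstimulated sh*Ppargc1b*, 890.0 ± 37.8 in IFN-β-treated shControl and 741 ± 23.9 in IFN-β-treated sh*Ppargc1b* cells. The make-up of this sum changed as well. *Ms4a6d* made up 61.1% ± 0.856 of it in unstimulated shControl and 36.9% ± 0.800 with IFN-β, while *Ms4a4c* made up 3.11% ± 0.593 and 32.4% ± 0.812. *Ms4a6c* kept a share of 20.6% ± 0.563 without and 22.5% ± 0.155 with IFN-β in these cells.

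**Figure D1:**
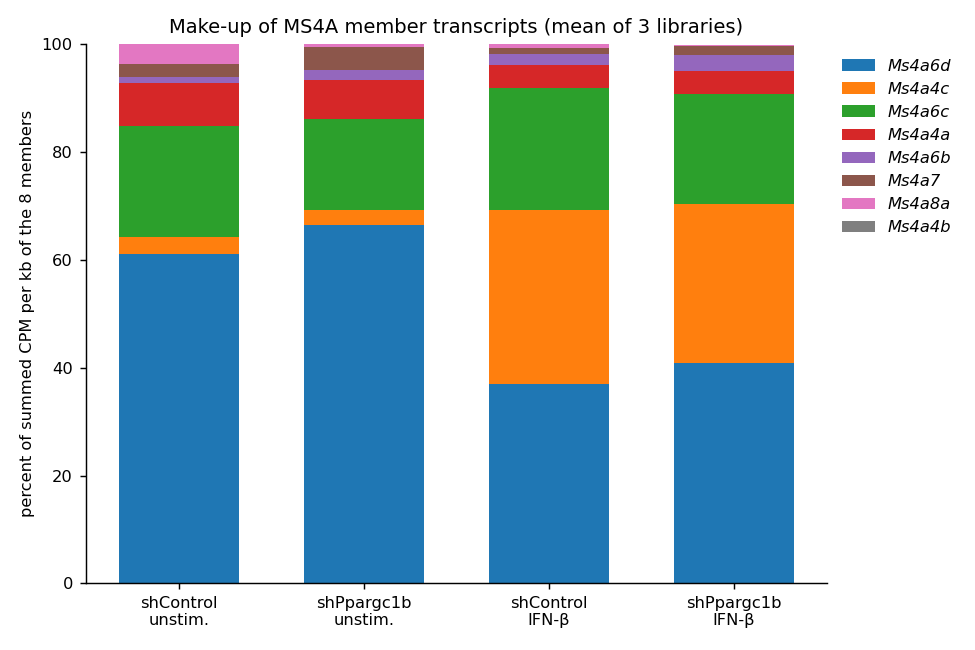
Make-up of the MS4A member transcripts in each group, as the percent that each gene takes of the summed CPM per kb of the 8 members (mean of 3 libraries). *Ms4a4c* takes 3.11% of the bar in unstimulated shControl and 32.4% in IFN-β-treated shControl cells, and *Ms4a4b* is too low to be seen.

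IFN-β raised every member in both shRNA groups, and for each member the IFN-β-treated libraries lay above the unstimulated libraries of the same shRNA. The 8 members had a median log2 fold change of 2.83 (shControl) and 2.55 (sh*Ppargc1b*), where all 18228 genes tested had -0.03 and -0.02. The range ran from 1.0 (*Ms4a8a*) to 6.60 (*Ms4a4c*) in shControl and from 1.38 (*Ms4a7*) to 6.14 (*Ms4a4c*) in sh*Ppargc1b* cells. Because these genes were chosen with their induction known, the values describe the members and support nothing further.

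**Figure D2:**
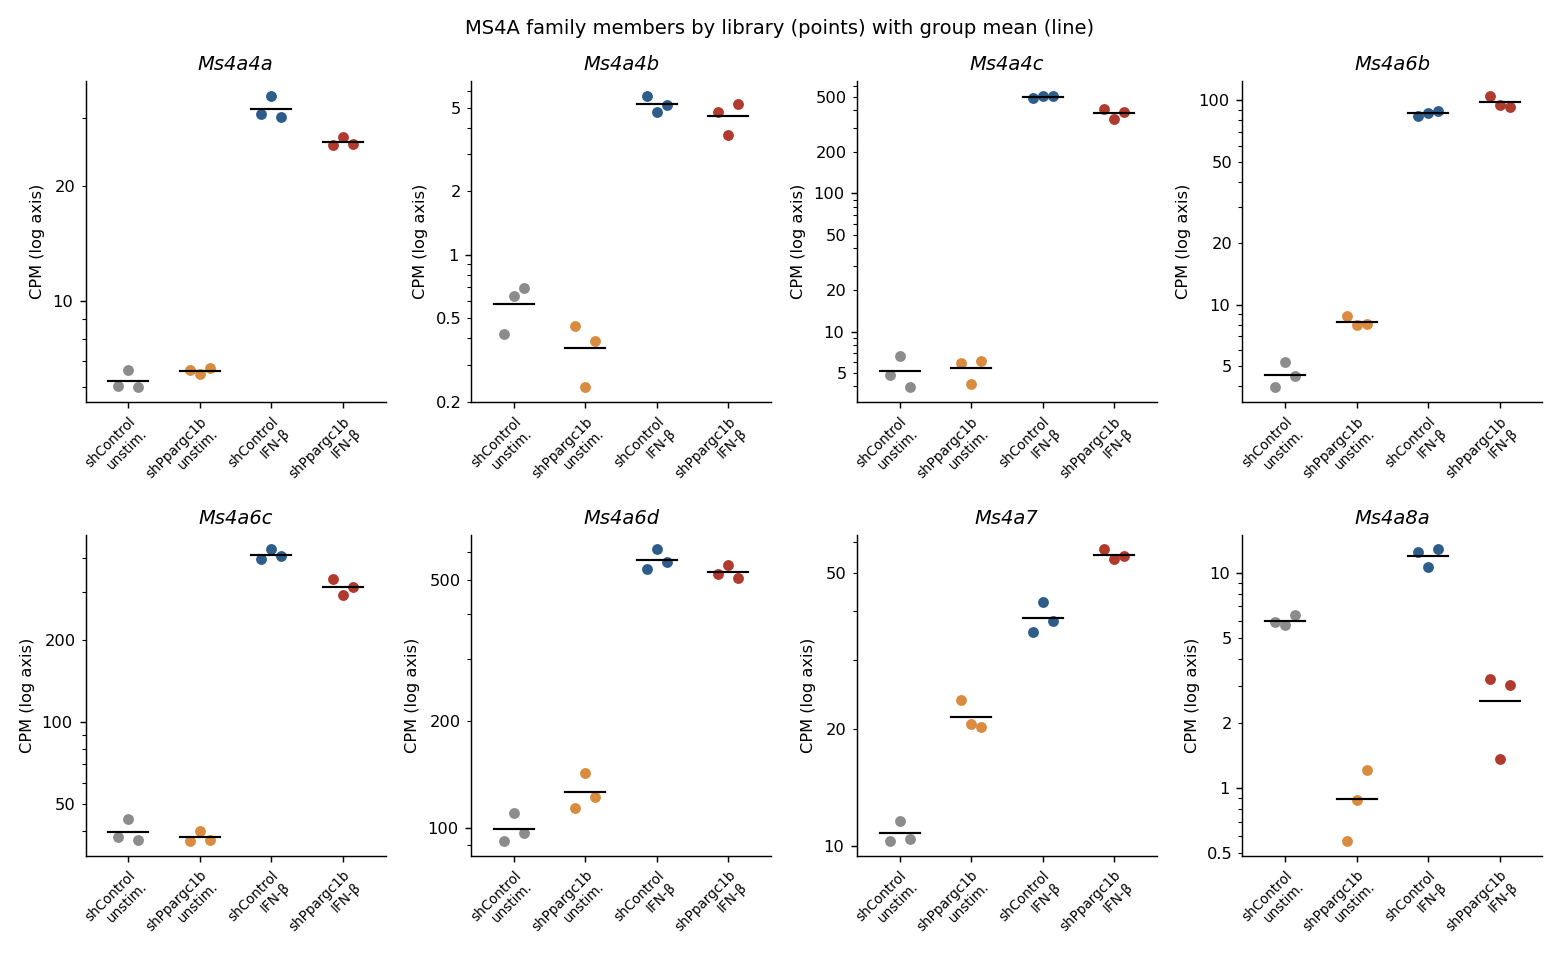
CPM of each member in each library (points, log axis with its own range per gene) with the group mean (line), for the 4 groups. The IFN-β-treated libraries lie above the unstimulated ones in every panel for both shRNAs, and *Ms4a8a* libraries of sh*Ppargc1b* cells lie below those of shControl cells.

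*Ms4a4c* had 4.86, 6.68 and 3.94 CPM in unstimulated shControl and 5.96, 4.18 and 6.14 CPM in unstimulated sh*Ppargc1b* libraries. IFN-β-treated libraries held 489, 512 and 512 CPM in shControl and 413, 344 and 391 CPM in sh*Ppargc1b* libraries. The unstimulated groups overlapped, and with IFN-β all sh*Ppargc1b* libraries were below all shControl libraries. Its IFN-β effect was 97.2-fold in shControl (log2 6.60 ± 0.15 SE) and 70.6-fold in sh*Ppargc1b* cells (6.14 ± 0.15), which placed it 14th and 9th from the top of the 18228 genes. The knockdown effect was 0.06 ± 0.16 without IFN-β (adjusted p = 0.84, 95% interval -0.29 to 0.41) and -0.40 ± 0.11 with IFN-β (adjusted p = 0.0173). The call with IFN-β was lost without replicate 2 of IFN-β-treated sh*Ppargc1b* (adjusted p = 0.0519), without replicate 3 of IFN-β-treated shControl (0.0514) and with DESeq2 (0.121), and over 18 alternatives the value lay between -0.47 and -0.34 (adjusted p 2.0e-13 to 0.121).

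*Ms4a4a*, a macrophage gene whose product is reported to associate with Dectin-1, had 6.04, 6.62 and 5.98 CPM in unstimulated shControl and 6.63, 6.48 and 6.71 CPM in unstimulated sh*Ppargc1b* libraries. With IFN-β it had 30.8, 34.3 and 30.1 CPM in shControl and 25.5, 26.7 and 25.7 CPM in sh*Ppargc1b* libraries. As for *Ms4a4c*, the groups overlapped without IFN-β and stood apart with it. The knockdown effect was 0.09 ± 0.07 without IFN-β (adjusted p = 0.424) and -0.29 ± 0.06 with it (adjusted p = 0.00299). IFN-β raised *Ms4a4a* 5.10-fold in shControl and 3.93-fold in sh*Ppargc1b* cells.

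*Ms4a4b* was scarce, at 16 to 39 counts in unstimulated and 212 to 364 counts in IFN-β-treated libraries. It had 0.420, 0.639 and 0.692 CPM in unstimulated shControl and 0.458, 0.234 and 0.387 CPM in unstimulated sh*Ppargc1b* libraries, and the groups overlapped. Under IFN-β it stood at 5.70, 4.78 and 5.12 CPM in shControl and 4.74, 3.71 and 5.2 CPM in sh*Ppargc1b* libraries, again with overlap. The knockdown effect passed the test in neither condition (-0.72 ± 0.27, adjusted p = 0.0708, and -0.19 ± 0.17, adjusted p = 0.471). Without IFN-β the call depended on the fit, as adjusted p ranged from 0.0328 to 0.272 over the alternatives. *Cd3d*, *Cd3e*, *Cd3g* and *Trac*, defining genes of T cells, were each under 1 CPM in every library. *Cd8a*, also on the T or NK cell-like list, reached 1.95 CPM in an IFN-β-treated sh*Ppargc1b* library. It rose with the knockdown by 0.84 ± 0.23 without IFN-β (adjusted p = 0.017) and 1.08 ± 0.22 with it (adjusted p = 0.00174).

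The *Ms4a6* genes, of myeloid cells, differed from each other in their response to the knockdown. *Ms4a6b* had 3.94, 5.24 and 4.47 CPM in unstimulated shControl and 8.78, 8.0 and 8.02 CPM in unstimulated sh*Ppargc1b* libraries. With IFN-β the libraries had 83.5, 87.1 and 88.5 CPM in shControl and 105.5, 95.2 and 92.9 CPM in sh*Ppargc1b* libraries. The sh*Ppargc1b* libraries were higher in both conditions without overlap. The rise passed the test in unstimulated cells (1.81-fold, log2 0.86 ± 0.09, adjusted p = 4.9e-06). With IFN-β the difference of 0.18 ± 0.07 did not pass it (adjusted p = 0.0654), although it did under 10 of 18 alternatives (adjusted p 0.0149 to 0.323 over all 18). IFN-β raised *Ms4a6b* 19-fold in shControl and 11.9-fold in sh*Ppargc1b* cells.

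*Ms4a6d* had 92.1, 110.2 and 96.8 CPM in unstimulated shControl and 114, 143.5 and 123 CPM in unstimulated sh*Ppargc1b* libraries. In IFN-β-treated libraries it had 538, 609.8 and 562 CPM in shControl and 520.4, 552 and 505 CPM in sh*Ppargc1b* libraries. The groups stood apart without IFN-β and overlapped with it. *Ms4a6d* rose with the knockdown in unstimulated cells (1.27-fold, log2 0.35 ± 0.08, adjusted p = 0.00495), and its effect with IFN-β was -0.12 ± 0.08 (adjusted p = 0.321, but 0.045 when runs of library codes entered as a block). IFN-β raised it 5.72-fold in shControl and 4.15-fold in sh*Ppargc1b* cells.

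*Ms4a6c* had 38.1, 44.2 and 36.9 CPM in unstimulated shControl and 36.7, 40.0 and 37.0 CPM in unstimulated sh*Ppargc1b* libraries, which overlapped. After IFN-β the values were 397, 429 and 406 CPM in shControl and 335, 291 and 311.5 CPM in sh*Ppargc1b* libraries, and all sh*Ppargc1b* libraries were lower. The knockdown effect was -0.07 ± 0.07 without IFN-β (adjusted p = 0.53) and -0.40 ± 0.06 with it (adjusted p = 3.0e-04). IFN-β raised *Ms4a6c* 10.3-fold in shControl and 8.24-fold in sh*Ppargc1b* cells.

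*Ms4a7*, a gene of macrophages, rose with the knockdown in both conditions. It had 10.3, 11.6 and 10.4 CPM in unstimulated shControl and 23.7, 20.5 and 20.2 CPM in unstimulated sh*Ppargc1b* libraries. IFN-β-treated libraries held 35.3, 42.1 and 37.8 CPM in shControl and 57.6, 54.4 and 55.3 CPM in sh*Ppargc1b* libraries. The sh*Ppargc1b* libraries were above the shControl libraries throughout, and the unstimulated sh*Ppargc1b* libraries stayed below IFN-β-treated shControl libraries. The effect was 1.98-fold in unstimulated cells (log2 0.99 ± 0.08, adjusted p = 4.3e-07) and 1.45-fold with IFN-β (0.54 ± 0.07, adjusted p = 6.2e-05). IFN-β raised it 3.56-fold in shControl and 2.60-fold in sh*Ppargc1b* cells.

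*Ms4a8a* was the member that the knockdown lowered most. It had 5.93, 5.75 and 6.37 CPM in unstimulated shControl and 0.568, 0.878 and 1.22 CPM in unstimulated sh*Ppargc1b* libraries. With IFN-β it had 12.5, 10.7 and 12.9 CPM in shControl and 3.22, 1.37 and 3.03 CPM in sh*Ppargc1b* libraries. Even the IFN-β-treated sh*Ppargc1b* libraries were below every unstimulated shControl library. The level fell 6.63-fold without IFN-β (log2 -2.73 ± 0.26, adjusted p = 2.6e-06) and 4.77-fold with it (-2.25 ± 0.23, adjusted p = 6.2e-06). This placed it 5th from the bottom of the 18228 genes in unstimulated cells and 15th with IFN-β. IFN-β raised *Ms4a8a* 2.0-fold in shControl and 2.78-fold in sh*Ppargc1b* cells.

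Some markers of cell composition changed with the knockdown too. In bulk samples fewer cells of a type and less RNA per cell cannot be told apart. Of 12 tested macrophage-like markers, 3 fell and 1 rose in unstimulated cells and 5 fell and 1 rose with IFN-β. Over all genes tested, 23.6% passed without IFN-β (12.4% upward) and 24.2% with it (11.5% upward). Counts of macrophage-like markers without IFN-β and of neutrophil-like markers, below, were not far from these shares. The largest fall was that of *Mrc1*, the mannose receptor of alternatively activated macrophages (-1.51 ± 0.11, adjusted p = 2.0e-07, and -1.42 ± 0.11, adjusted p = 5.8e-07). Summed macrophage-like CPM was 2725 to 2907 in unstimulated shControl, 2464 to 2592 in unstimulated sh*Ppargc1b*, 3350.4 to 3615 in IFN-β-treated shControl and 2858 to 3103 in IFN-β-treated sh*Ppargc1b* libraries. Of 9 tested dendritic-like markers, 4 rose in unstimulated cells and 5 with IFN-β, and none fell. Their summed CPM was 4482 to 5305 in unstimulated shControl and 5173 to 5977 in unstimulated sh*Ppargc1b* libraries, and 4833 to 5846 in IFN-β-treated shControl and 5678 to 6531 in IFN-β-treated sh*Ppargc1b* libraries. *Cd74*, the largest part of this sum, did not pass (adjusted p = 0.215 without and 0.152 with IFN-β). Neutrophil-like markers summed to 39.4 to 87.1 and 36.6 to 92.3 CPM in shControl without and with IFN-β, against 85.7 to 148 and 82.9 to 154.5 CPM in sh*Ppargc1b* libraries. Mast cell or basophil-like markers summed to 8.50 to 16.0 and 6.86 to 13.6 CPM in shControl, against 21.9 to 24.5 and 12.7 to 20.3 CPM in sh*Ppargc1b* libraries. In each condition 1 of 7 tested neutrophil-like and 2 of 4 mast cell or basophil-like markers rose, as did 1 of 2 T or NK cell-like markers, and none of 5 B cell-like markers passed. Their part in the changes of *Ms4a8a*, *Ms4a7* and the other members was not tested.

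Counted together, 4 of 8 members passed the test for the knockdown in unstimulated cells, 3 upward (*Ms4a6b*, *Ms4a6d* and *Ms4a7*) and 1 downward (*Ms4a8a*). Over all genes tested, 23.6% passed, 12.4% upward and 11.1% downward. With IFN-β 5 of 8 members passed, 1 upward (*Ms4a7*) and 4 downward (*Ms4a4a*, *Ms4a4c*, *Ms4a6c* and *Ms4a8a*), against 24.2% of all genes, 11.5% upward and 12.7% downward. The libraries of the shRNA groups did not overlap for 4 members without IFN-β and for 6 members with it, where 36.8% and 38.7% of all genes had no overlap. The median log2 effect over the members was 0.08 without IFN-β and -0.24 with it, and over all genes it was -0.0049 and -0.01.

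**Figure D3:**
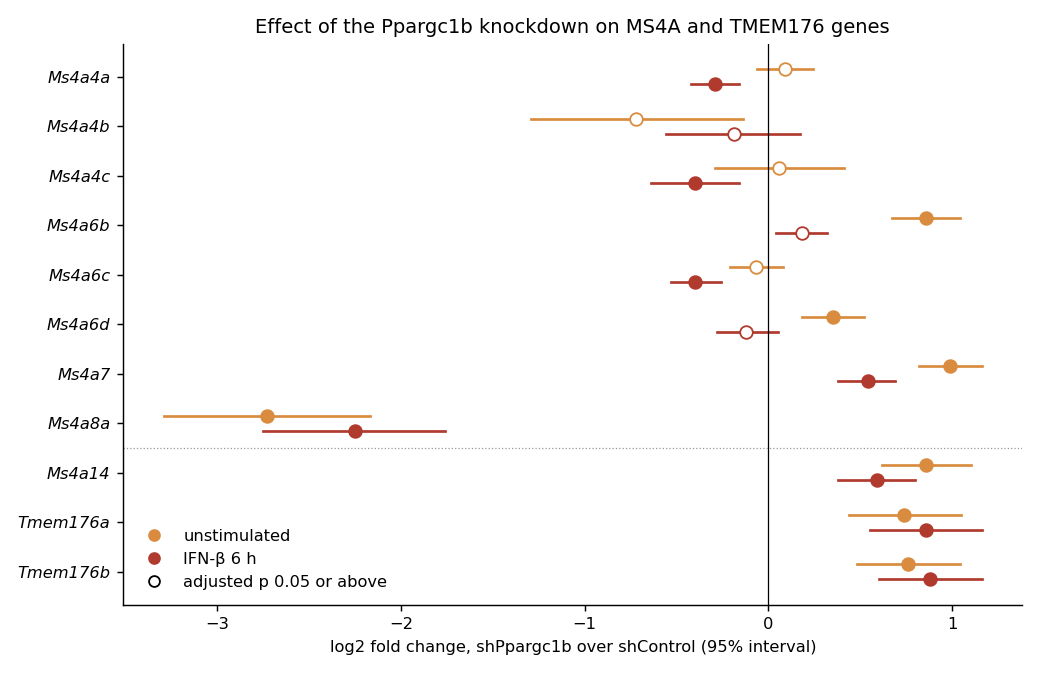
Log2 fold change of sh*Ppargc1b* over shControl (points) with 95% intervals (lines) in unstimulated and IFN-β-treated cells, for the 8 members and, below the dotted line, *Ms4a14*, *Tmem176a* and *Tmem176b*. Filled points passed the test, and *Ms4a8a* stands apart at -2.73 and -2.25 while *Ms4a7* lies at 0.99 and 0.54.

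The interaction asked whether the knockdown effect differed between the conditions, which is the same number as the difference of the IFN-β effects between the shRNA groups. The family was chosen by its induction, so the choice can bear on these values and their adjusted p. The interaction passed or failed as follows, with that limit. It passed the test for 1 member, *Ms4a6b* (-0.68 ± 0.11, adjusted p = 0.0117, 95% interval -0.91 to -0.44), where 0.730% of all genes passed, 0.0603% upward and 0.669% downward. Without replicate 3 of unstimulated shControl it did not pass (adjusted p = 0.0589, with 8.0e-10 to 0.0589 over 17 alternatives). Of the other members, *Ms4a4a* (-0.38 ± 0.09, adjusted p = 0.086), *Ms4a4c* (-0.46 ± 0.20, 0.422), *Ms4a6c* (-0.33 ± 0.09, 0.138), *Ms4a6d* (-0.46 ± 0.11, 0.0737) and *Ms4a7* (-0.45 ± 0.11, 0.07) had negative values that did not pass. *Ms4a4b* (0.52 ± 0.32, 0.639) and *Ms4a8a* (0.48 ± 0.35, 0.729) had positive values that did not pass either. The number of members that passed depended on the fit: it was 5 with all genes of at least 1 count, 5 with DESeq2 and 4 when runs of consecutive library codes entered as a block. These other calls were *Ms4a4a*, *Ms4a4c*, *Ms4a6c*, *Ms4a6d* and *Ms4a7* in varying sets, all with negative values. The median of the members was -0.41, against -0.00079 over all genes.

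Interferon-stimulated genes outside the family were measured beside it. All 10 reference genes had negative interaction values, with a median of -0.55. Of these, 2 passed the test, *Isg15* (-0.62 ± 0.13, adjusted p = 0.0489) and *Irf7* (-0.72 ± 0.14, adjusted p = 0.0244), where 0.730% of all genes passed. Over all genes tested, 12.4% rose and 11.1% fell with the knockdown in unstimulated cells. In unstimulated cells 5 of the 10 rose with the knockdown and none fell, among them *Irf7*, a transcription factor that amplifies interferon responses (0.59 ± 0.10, adjusted p = 4.0e-04), *Usp18*, which dampens signalling from the interferon receptor (0.58 ± 0.10, 5.0e-04), and *Oasl1*, of the oligoadenylate synthetase family (0.57 ± 0.12, 0.00212). With IFN-β none rose and 2 fell, *Mx1* and *Cxcl10*, the latter a chemokine gene (-0.60 ± 0.16, 0.0136). Of all genes 24.2% passed with IFN-β, so this count was near that of all genes. The members and these genes were both chosen with earlier results of these libraries known.

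**Figure D4:**
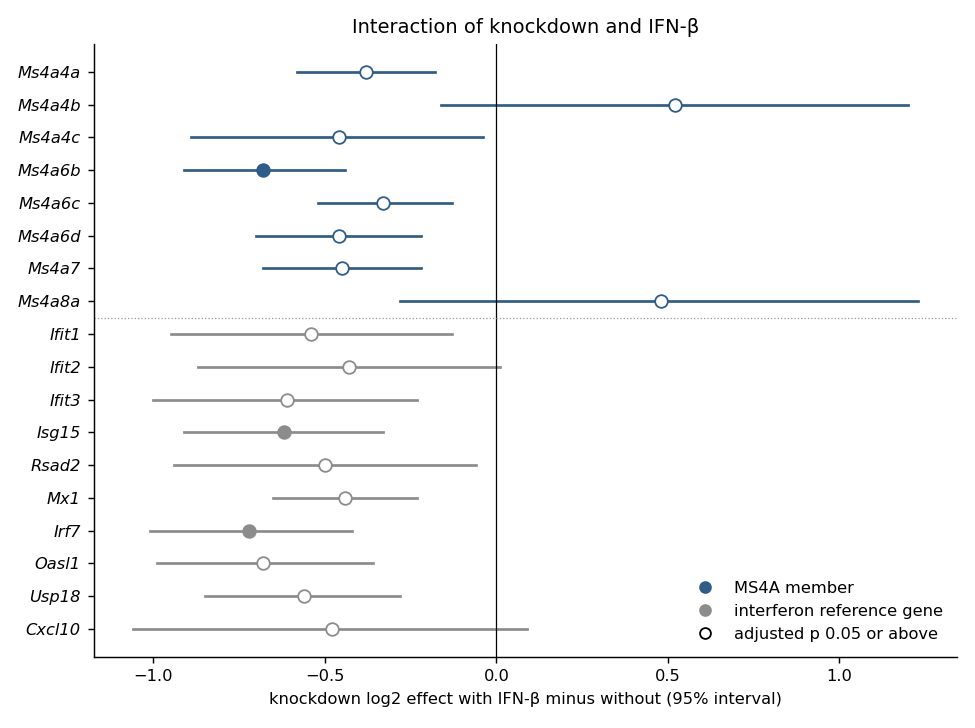
Interaction of knockdown and IFN-β (knockdown log2 effect with IFN-β minus without, points with 95% intervals) for the 8 MS4A members and, below the dotted line, 10 interferon reference genes. Filled points passed the test (*Ms4a6b* at -0.68, *Isg15* at -0.62 and *Irf7* at -0.72), and *Ms4a4b* and *Ms4a8a* lie on the positive side with intervals that include 0.

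Of the other 13 MS4A genes in the table, 5 passed the filter on low counts. *Ms4a14*, next to *Ms4a7* on the chromosome, had 3.59, 4.26 and 3.19 CPM in unstimulated shControl and 7.4, 6.89 and 5.77 CPM in unstimulated sh*Ppargc1b* libraries. Under IFN-β it stood at 15.4, 17.9 and 16.9 CPM in shControl and 26.6, 24.5 and 24.6 CPM in sh*Ppargc1b* libraries. Like *Ms4a7*, it was higher in sh*Ppargc1b* libraries in both conditions without overlap, and it rose with the knockdown by 0.86 ± 0.11 (adjusted p = 4.7e-05) and 0.59 ± 0.10 (adjusted p = 3.8e-04). *Ms4a1*, encoding CD20, stayed between 0.0709 and 0.296 CPM. *Ms4a2* ranged from 0.0369 to 0.916 CPM and *Ms4a3*, a gene of myeloid progenitors and basophils, from 0.122 to 1.02 CPM, and the shRNA groups overlapped for all 3. None of these 3 genes passed the test for the knockdown. *Ms4a19* had 0 counts in all 6 unstimulated libraries, 13, 14 and 20 counts in IFN-β-treated shControl and 3, 4 and 12 counts in IFN-β-treated sh*Ppargc1b* libraries, a difference that did not pass (-1.22 ± 0.53, adjusted p = 0.128, with 0.0333 to 0.324 when each library was left out in turn). The other 8 genes, among them *Ms4a4d* with at most 13 counts a library, were too low to test.

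*Tmem176a* and *Tmem176b*, neighbours on chromosome 6 that encode distant relatives of the MS4A proteins found in DCs, were also higher with the knockdown. *Tmem176b* had 14.7, 16.6 and 17.0 CPM in unstimulated shControl and 27.9, 25.2 and 28.6 CPM in unstimulated sh*Ppargc1b* libraries. With IFN-β the libraries had 17.6, 18.5 and 20.9 CPM in shControl and 43.5, 26.6 and 35.0 CPM in sh*Ppargc1b* libraries. The shRNA groups did not overlap in either condition. Its effect was 0.76 ± 0.13 without IFN-β (adjusted p = 5.6e-04) and 0.88 ± 0.13 with it (adjusted p = 1.6e-04). *Tmem176a* rose by 0.74 ± 0.14 (adjusted p = 0.00131) and 0.86 ± 0.14 (adjusted p = 4.0e-04). The IFN-β effect on *Tmem176b* was 0.24 ± 0.13 in shControl and 0.36 ± 0.13 in sh*Ppargc1b* cells.

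Of 8 genes reported to act with MS4A proteins, 2 rose with the knockdown in each condition and none fell, where 23.6% and 24.2% of all genes passed, so the count was near that of all genes. *Trem2*, a lipid-sensing receptor of myeloid cells, rose by 0.43 ± 0.07 (adjusted p = 2.1e-04) and 0.50 ± 0.07 (adjusted p = 6.1e-05). *Clec7a*, which encodes the β-glucan receptor Dectin-1, rose by 0.29 ± 0.05 (adjusted p = 0.00116) and 0.36 ± 0.05 (adjusted p = 2.1e-04). *Tnfrsf18*, which encodes the receptor GITR, had -0.24 ± 0.13 (adjusted p = 0.198) and -0.20 ± 0.13 (adjusted p = 0.305). *Fcer1a*, the α chain of the IgE receptor, was measured with a wide error (-0.68 ± 0.91 with IFN-β, adjusted p = 0.647). The median IFN-β effect of the 8 was -0.07 in shControl and -0.0031 in sh*Ppargc1b* cells.

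Genes between the members on the chromosome were examined for the same effects. Of the 27 genes of the span, 19 were tested, 11 of them not members. For *Ms4a19*, with 0 counts in every unstimulated library, no fold was taken. Of the other 10, 7 had an IFN-β log2 effect above 1 in both shRNA groups. Over all genes tested, the log2 effect of 1.0 of *Ms4a8a* in shControl ranked 1396th from the top of 18228. *Gm5511*, a processed pseudogene between *Ms4a4c* and *Ms4a4b*, had 0 to 5 counts in unstimulated and 14 to 69 counts in IFN-β-treated libraries. *Gm19261*, antisense to the start of *Ms4a6b*, had 0 or 1 count in unstimulated and 7 to 23 counts in IFN-β-treated libraries. *Gm5511* and *Gm19261* passed the filter on low counts only through IFN-β-treated libraries, so their high IFN-β effect was partly fixed by the filter. *Gm8369*, a protein-coding gene between *Ms4a6c* and *Ms4a6b*, had 1.24, 1.03 and 0.816 CPM in unstimulated shControl and 0.605, 0.585 and 0.511 CPM in unstimulated sh*Ppargc1b* libraries, and IFN-β raised it by 3.37 ± 0.13 and 3.47 ± 0.15. It fell with the knockdown by 0.87 ± 0.17 in unstimulated cells (adjusted p = 0.00146) and by 0.76 ± 0.11 with IFN-β (adjusted p = 1.4e-04), while its neighbour *Ms4a6b* did not fall. Over the 11 genes, 1 rose and 1 fell with the knockdown in unstimulated cells, and 1 rose and 2 fell with IFN-β. Of all genes tested 23.6% and 24.2% passed, so these counts were near those of all genes. From *Ms4a8a* to *Ms4a1* the genes with a fold lay between -0.07 and 1.48 in their log2 IFN-β effect, apart from *Ms4a19*, which had counts with IFN-β only and no fold. From *Ms4a14* to *Ms4a6d* the genes with a fold lay between 1.38 and 6.60. Genes too low to test have no fold, and *Gm5511* and *Gm19261* have one only through their IFN-β-treated libraries. Which genes enter this range was thus partly set by the filter.

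**Figure D5:**
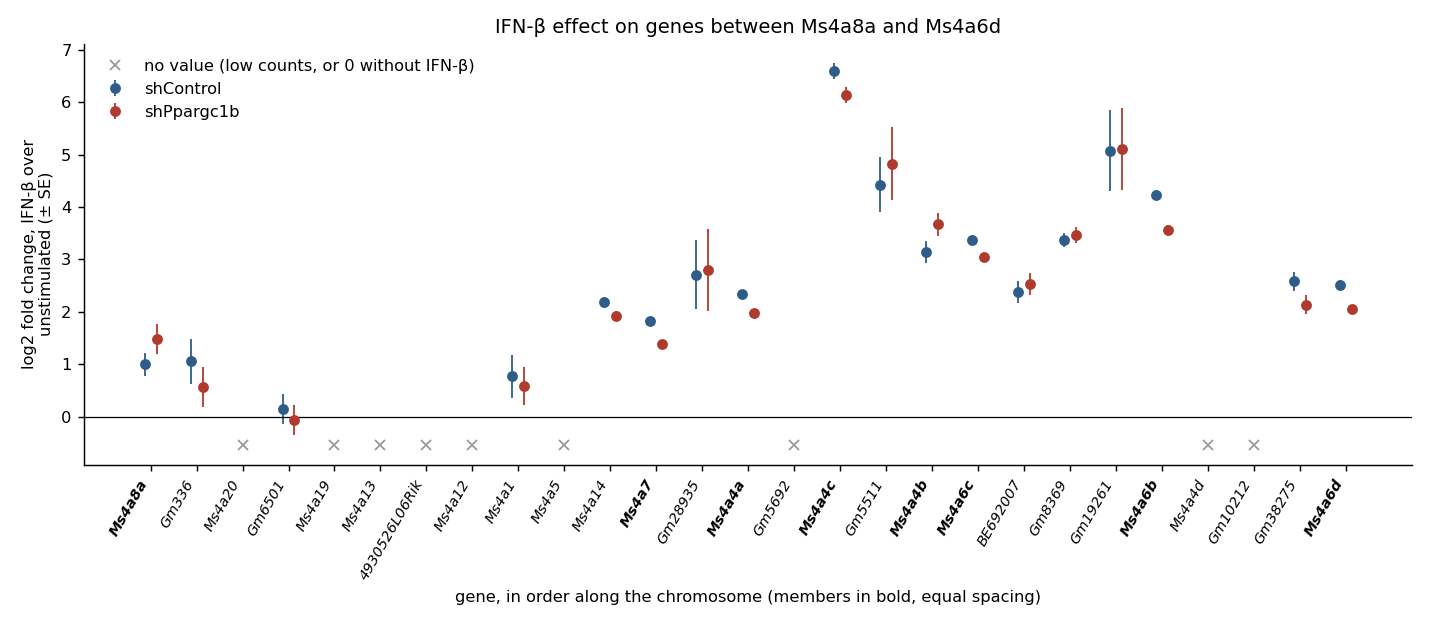
Log2 fold change of IFN-β over unstimulated (points, ± SE) in shControl and sh*Ppargc1b* cells for the 27 genes from *Ms4a8a* to *Ms4a6d*, in chromosome order with equal spacing and members in bold. Crosses mark genes with no value, because counts were too low or, for *Ms4a19*, 0 in every unstimulated library, and of the genes drawn *Ms4a4c* is highest at 6.60 and 6.14.

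The members' patterns were compared with each other and with all genes by Pearson's correlation of log2 CPM over the 12 libraries, as a description, since all points share the 4 groups and IFN-β sets most of the spread. *Ms4a4a*, *Ms4a4c*, *Ms4a6b*, *Ms4a6c* and *Ms4a6d* correlated with each other at 0.98 or more. *Ms4a7* correlated with *Ms4a4c* at 0.89 and *Ms4a8a* did so at 0.44, and *Ms4a7* with *Ms4a8a* at -0.02. Among 8751 genes searched, the genes most like *Ms4a4c* were *Dtx3l*, *Dhx58* and *Ifit1bl1*, and those most like *Ms4a4a* were *Tap2*, *Herc6* and *Marchf5* (r = 0.999 each). *Ms4a6b* was most like *Bst2*, *Helz2* and *Tapbp* (0.998 to 0.999), *Ms4a6c* like *Trim21*, *Gm5431* and *Gbp6* (0.999 each), *Ms4a6d* like *Tor3a*, *Irf7* and *Cd69* (0.998 to 0.999), and *Ms4a4b* like *Ep400*, *Iqsec2* and *Gvin2* (0.989 to 0.990). *Ms4a7* was most like *Il23r* (0.996), a cytokine receptor gene at 3.69 and 10.8 CPM in unstimulated shControl and sh*Ppargc1b* cells and at 25.3 and 44.2 CPM with IFN-β, then *Galnt7* and *Usp40*. *Ms4a8a* was most like *Snx5* (0.984), *Sulf2* (0.980) and *Dr1* (0.978). *Snx5*, a sorting nexin gene, stood at 314.4 and 258.1 CPM in unstimulated shControl and sh*Ppargc1b* cells and at 338.5 and 280.3 CPM with IFN-β.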

How the data were processed

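RNA-seq counts of 12 libraries were analysed, 3 in each of 4 groups taken from the labels. The deposited table holds raw counts per gene. Per the study's methods, the authors trimmed read pairs with trim_galore, mapped them to mm10 with STAR and counted them against GENCODE M20. The submitters' processing notes name Trim Galore 0.6.0 and STAR 2.7.8a, while the study's methods name another release of STAR. Whether counting used the strand is not given in the sources used here. The columns were neither normalized nor pooled. Replicates of a group differed by more than sampling noise (chi-square per degree of freedom 8.51 to 21.2 over 12 pairs).

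Genes were kept by filterByExpr (minimum count 10, minimum total 15), which left 18228 of 55471 genes and all 8 members, each above the filter's 0.175 CPM in all 12 libraries. A quasi-likelihood model in edgeR 4.0.16 (R 4.3.3), with TMM-scaled library sizes, was fitted to all libraries with 1 mean per group. Each contrast was tested with the quasi-likelihood test and Benjamini-Hochberg adjustment over all genes tested and a threshold of 0.05, and every adjusted p given comes from this test unless DESeq2 1.42.0 is named. CPM values are on the scaled library sizes, errors of means are SD and errors of log2 fold changes are SE. Exon lengths and positions came from GENCODE M21 (GRCm38) and promoters from RefSeq. Alternatives were DESeq2 size factors or library totals for scaling, every gene with at least 1 count, a block for each run of 4 consecutive library codes, only the groups compared, the DESeq2 Wald test, each library left out in turn and, for the order of levels, the longest transcript.

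The members and gene lists were chosen with earlier results of these data known. Genes named are the members, MS4A genes past the filter, genes of the span, at most 4 genes of each list with the largest knockdown effect, and for each member the 3 genes of highest correlation (mean log2 CPM of at least 3, prior count 2). *Isg15* and *Mx1*, and the markers named beside a result, were added after their values were seen.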

Additional observations from a re-analysis of the deposited data

Results flagged for a closer look

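The knockdown effect on *Ms4a6b* differed between the conditions in the interaction test, which is not independent of how the family was chosen. The effect with IFN-β minus the effect without it was -0.68 on the log2 scale (adjusted p = 0.0117, edgeR): the gene was 1.81-fold higher in unstimulated sh*Ppargc1b* than shControl cells and 1.13-fold higher with IFN-β. The value lay between -0.78 and -0.56 over 17 alternatives, and the call was lost under 1 of them, without replicate 3 of unstimulated shControl (adjusted p = 0.0589).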

How the results depend on the processing

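The knockdown was called for 4 to 5 members in unstimulated cells and for 4 to 6 with IFN-β when each library was left out in turn, and for 5 and 7 with the library-code block, which added *Ms4a4b* without IFN-β and *Ms4a6b* and *Ms4a6d* with it. The number called for the interaction, 1, became 5 with every gene of at least 1 count, 4 with the library-code block, 5 with DESeq2 and 0 to 3 without 1 library. The cause was not tested. With DESeq2 size factors, library totals, or every gene of at least 1 count the directions of the called members did not change. Scaling by library totals moved the median IFN-β effect of all genes from -0.034 to -0.273 in shControl and from -0.018 to -0.221 in sh*Ppargc1b* cells, and the IFN-β effects on the members fell with it. Of 424 alternative values for the members' tested effects, 386 kept their direction and their side of the threshold.

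Effects that were not called changed sign when a library was left out: the knockdown effect without IFN-β on *Ms4a4c* (-0.10 to 0.30), *Ms4a6c* (-0.12 to 0.02), *Ms4a2* (-0.36 to 0.77) and *Ms4a3* (-0.61 to 0.38), that with IFN-β on *Ms4a3* (-0.56 to 0.16), the interaction of *Ms4a1* (-0.38 to 0.06), *Ms4a3* (-0.51 to 0.48), *Tmem176a* (-0.12 to 0.29) and *Tmem176b* (-0.08 to 0.27), and the IFN-β effect on *Ms4a2* in sh*Ppargc1b* cells (-1.06 to 0.33). The interaction of *Ms4a3* was -0.0034 with DESeq2 size factors and -0.01 with every gene of at least 1 count, and the IFN-β effect on *Tmem176a* in shControl was -0.0032 with library totals.

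The labels give no replicate numbers and do not say that a run of library codes is a batch, so samples were paired only in the library-code block. *Ms4a4b*, *Ms4a1*, *Ms4a2*, *Ms4a3* and *Ms4a19* rested on few counts, so their intervals are wide.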
